A study of Mus musculus with 12 samples.

Results

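This account follows 34 mouse genes of epithelial cells, namely keratins, claudins, junction proteins, membrane proteases with their inhibitors, and the regulators that go with them. They were taken by symbol from the 35856 rows of the table, and all 34 were found. The RNA came from cardiac precursors, mesodermal progenitors of the heart, grown from C57BL/6 embryonic stem cells and measured with poly(A) RNA-seq. The 12 libraries fall into 6 groups of 2. SUZ12-AID, MTF2-AID and AID-JARID2 cells, all with Tir1, were left untreated or given auxin (50 µM indole-3-acetic acid). They were harvested after 48 h as embryoid bodies, 43 h of reaggregation and 32 h as a monolayer. AID is a degron, a tag through which the plant receptor TIR1 and auxin mark a protein for degradation. SUZ12 is a core subunit of Polycomb repressive complex 2 (PRC2), which methylates histone H3 at silent developmental genes, and MTF2 and JARID2 are accessory subunits. Each subunit had 1 tagged line, untagged cells with auxin were not analysed here, and protein levels were not analysed here, so subunit loss, tag, line and auxin itself cannot be told apart.

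Epithelial cells are held together by tight junctions sealed by claudins, adherens junctions built on E-cadherin, and desmosomes that anchor keratin filaments. Embryonic stem cells and the epiblast are epithelial, and cells that become mesoderm at the primitive streak give up E-cadherin under repressors such as SNAI1, SNAI2, ZEB1 and ZEB2. Keratins 8 and 18, in contrast, are also made by early mesoderm-derived and extraembryonic cells.

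Values are TPM (transcript abundance scaled for gene length and library size), given as replicate 1 and replicate 2 of a group. Recovered reads numbered 10138285 to 17171770 per library, and 18961 to 21023 genes were above 0. Of the 34 genes, 32 reached 1 TPM in at least 2 libraries and were tested with the 15661 genes that did so, and 30 of them were at 1 TPM or more in all 12 libraries. Fold changes are differences of mean log2(TPM + 1) and understate changes of low genes. Adjusted p values come from limma with Benjamini-Hochberg adjustment over all genes tested, and a call is an adjusted p under 0.05. Replicates are described as biological, but no source says that they were separate cultures, so the spread behind the p values is that of libraries and may be technical. Each tagged gene's own transcript was 113 and 127 TPM untreated and 106 and 109 TPM with auxin for Suz12 in SUZ12-AID, 22.4 and 21.7 and 26.0 and 24.7 TPM for Mtf2 in MTF2-AID, and 45.3 and 43.5 and 104 and 113 TPM for Jarid2 in AID-JARID2. A degron acts on the protein, so these levels do not check its loss.

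The labelled cell type was checked on 18 cardiac precursor markers, of which 17 were tested. Hand1, a factor of heart and extraembryonic mesoderm, stood at 2291 and 2552 TPM in untreated SUZ12-AID, 1369.7 and 1352 TPM in untreated MTF2-AID and 1884 and 1832 TPM in untreated AID-JARID2. Gata4, a cardiac factor, stood at 57.9 and 68.9, 66.4 and 66.9 and 89.3 and 88.1 TPM, while Tbx5 stayed under the filter. In SUZ12-AID given auxin 7 markers rose, led by Nkx2-5 (2.77 and 1.73 to 28.4 and 23.4 TPM), and 1, Hand1, fell (all genes: 15.1% and 4.05%). The summed level of the 18 markers still fell there, from 2922 and 3195 to 2049 and 1873 TPM. In AID-JARID2 given auxin, 15 of the 17 markers fell and 0 rose (all genes: 17.0% and 19.5%). Their sum went from 2953 and 2854 to 549 and 469 TPM. The AID-JARID2 auxin libraries thus held less RNA of most of these markers. In bulk RNA fewer cells of a type and less RNA per cell cannot be told apart.

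With auxin, the epithelial genes rose in SUZ12-AID and in AID-JARID2, and few moved in MTF2-AID. In SUZ12-AID 28 of the 32 rose and 0 fell, where 15.1% of all genes tested rose and 4.05% fell. In AID-JARID2 26 rose and 5 fell, against 19.5% and 17.0% of all genes. In MTF2-AID 2 rose and 0 fell, against 0.0447% and 0.0192%. The median log2 difference over all 34 genes, with those under the filter, was 0.89 in SUZ12-AID, -0.00 in MTF2-AID and 1.32 in AID-JARID2, beside 0.06, 0.01 and 0.01 over all genes tested. The genes that rose in both SUZ12-AID and AID-JARID2 numbered 25, and 6.38% of all genes tested rose in both. Replicates of SUZ12-AID spread more than those of the other lines. A variance weight per line left 23 of the 28 calls (6.25% of all genes rose). A fit on the 4 SUZ12-AID libraries alone, which also estimates the spread from fewer libraries, left 8 (0.824% of all genes rose). In MTF2-AID a variance weight per line gave 5 higher and 3 lower (all genes: 0.351% and 0.696%), and the line alone gave 0. The 8 in SUZ12-AID were Krt7, Krt8, Cldn3, Cldn4, St14, Anxa1, Gprc5a and Sprr2a2.

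**Figure D1:**
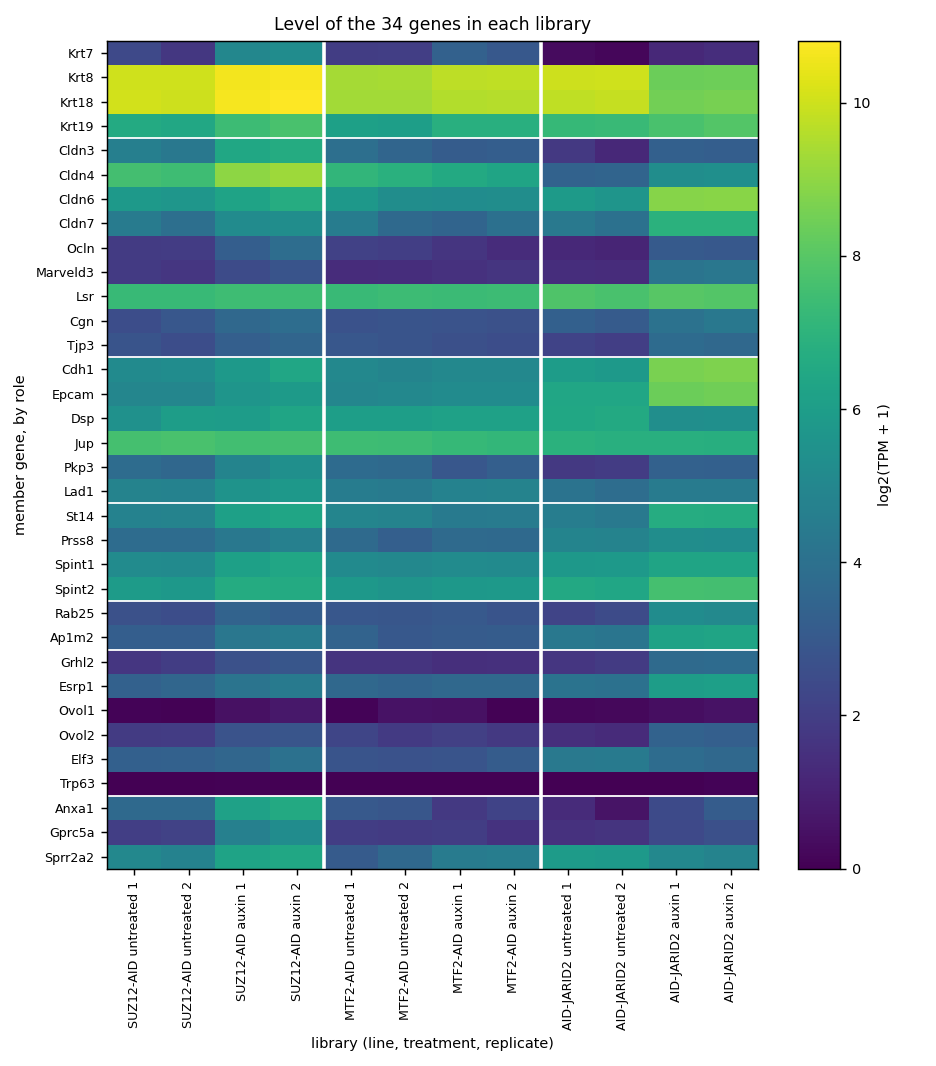
Level of each of the 34 genes (rows, by role: keratins, tight junction, adhesion and desmosome, proteases and inhibitors, trafficking, regulators, other products) in each of the 12 libraries (columns), as log2(TPM + 1). Krt8 and Krt18 are the brightest rows, Trp63 and Ovol1 are near 0 throughout, and Cldn6, Cdh1 and Epcam are brightest in the 2 AID-JARID2 auxin libraries.

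Promoter windows are shown because many of the genes moved together and because a shared short element can be read from their sequence. RefSeq windows on GRCm38.p6 (250 bases before to 50 after a start site) were found for 23 of the 34 genes, 26 windows in all. Krt19, Marveld3, Cdh1, Pkp3, St14, Prss8, Grhl2, Esrp1, Ovol1, Trp63 and Gprc5a had none in the table. The E-box CACCTG, searched on both strands (CAGGTG on the other), is the element that SNAI and ZEB repressors bind. It occurred in 19 of the 26 windows (73.1%), which is 17 of 23 genes, against 20.2% of all 32851 windows and 18.9% of the 14182 windows of genes tested. By direction in AID-JARID2 it was in 14 of 20 windows of genes that rose and in 5 of 5 windows of genes that fell. A match is a description of the letters and not a bound site. AACCGG, one part of the grainyhead element, was in 6 of 26 windows (23.1%, against 6.83% of all windows and 10.5% of those of genes tested), and AACNNGTT in 2 (7.69%, against 4.20% and 3.30%). CpG pairs had a median of 15 per window in these genes, 7 in all windows and 20 in windows of genes tested. Some genes have several windows, and those of Ocln overlap.

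The windows printed here are those of 4 genes that rose in AID-JARID2 (Cldn6, Cldn4, Rab25, Ap1m2) and of the keratin pair that fell there, 5′ to 3′ on the gene's strand, with each E-box in capitals.
Cldn6, chr17:23679115-23679414, plus strand: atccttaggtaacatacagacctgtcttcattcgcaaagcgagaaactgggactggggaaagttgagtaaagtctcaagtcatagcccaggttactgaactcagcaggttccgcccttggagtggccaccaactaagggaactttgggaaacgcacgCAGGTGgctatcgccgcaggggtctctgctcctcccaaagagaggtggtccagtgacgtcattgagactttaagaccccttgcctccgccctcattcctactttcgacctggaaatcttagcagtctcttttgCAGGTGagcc
Cldn4, chr5:134946885-134947184, minus strand: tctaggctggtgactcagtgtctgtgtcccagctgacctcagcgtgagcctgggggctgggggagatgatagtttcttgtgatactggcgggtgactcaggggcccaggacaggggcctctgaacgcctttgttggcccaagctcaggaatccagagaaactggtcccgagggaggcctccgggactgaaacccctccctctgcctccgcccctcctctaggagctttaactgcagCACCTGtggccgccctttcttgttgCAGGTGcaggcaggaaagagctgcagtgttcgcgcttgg
Rab25, chr3:88548230-88548529, minus strand: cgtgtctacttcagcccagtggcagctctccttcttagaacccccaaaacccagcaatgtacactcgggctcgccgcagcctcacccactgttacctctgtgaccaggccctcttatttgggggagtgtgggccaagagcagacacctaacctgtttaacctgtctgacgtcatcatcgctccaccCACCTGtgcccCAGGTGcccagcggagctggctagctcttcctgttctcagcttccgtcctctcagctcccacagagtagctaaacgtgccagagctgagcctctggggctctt
Ap1m2, chr9:21312284-21312583, minus strand: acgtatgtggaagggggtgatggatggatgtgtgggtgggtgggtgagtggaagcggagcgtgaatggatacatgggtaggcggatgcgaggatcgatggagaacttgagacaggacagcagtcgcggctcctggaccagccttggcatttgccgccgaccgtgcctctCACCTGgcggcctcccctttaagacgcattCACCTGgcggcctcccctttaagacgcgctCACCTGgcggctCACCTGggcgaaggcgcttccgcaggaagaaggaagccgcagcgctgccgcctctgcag
Krt8, chr15:102004293-102004592, minus strand: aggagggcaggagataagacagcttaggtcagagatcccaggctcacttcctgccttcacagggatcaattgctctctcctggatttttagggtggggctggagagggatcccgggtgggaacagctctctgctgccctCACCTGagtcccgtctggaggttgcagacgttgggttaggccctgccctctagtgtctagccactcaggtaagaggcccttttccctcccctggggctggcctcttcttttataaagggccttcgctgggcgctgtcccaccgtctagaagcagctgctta
Krt18, chr15:102027966-102028265, plus strand: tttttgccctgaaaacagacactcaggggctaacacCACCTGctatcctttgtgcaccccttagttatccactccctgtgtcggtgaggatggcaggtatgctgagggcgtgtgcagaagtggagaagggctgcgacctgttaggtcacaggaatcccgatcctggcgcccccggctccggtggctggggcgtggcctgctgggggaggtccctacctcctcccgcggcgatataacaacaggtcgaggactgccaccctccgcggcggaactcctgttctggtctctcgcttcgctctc
Ap1m2 carries 4 matches, Cldn6, Cldn4 and Rab25 carry 2 each, and Krt8 and Krt18 carry 1 each. These genes were picked as examples. Among the other windows of genes that rose, those of Anxa1, Cgn, Lad1, Ovol2 and Spint1 carry 0 matches. Those of Cldn3 and Krt7 carry 1, that of Spint2 carries 3 and that of Lsr carries 4.

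Keratins form the intermediate filaments of epithelial cells, and Krt8 (mm10, chromosome 15, 101996698 to 102004482, minus strand) and Krt18 (chromosome 15, 102028180 to 102032027, plus strand) encode the partner chains of simple epithelia. The genes lie 23.7 kb apart. Krt8 stood at 1054 and 1036 TPM in untreated SUZ12-AID and rose to 1556 and 1659 TPM with auxin (log2 fold change 0.62, SE 0.0407, adjusted p = 3.11e-05). In MTF2-AID it rose from 651 and 664 to 859 and 864 TPM (log2 fold change 0.39, SE 0.0407, adjusted p = 0.00783). In AID-JARID2 it fell from 1000.4 and 1038 to 335 and 345 TPM (log2 fold change -1.58, SE 0.0407, adjusted p = 3.80e-09), so that auxin libraries lay above untreated ones in 2 lines and below them in the third. The MTF2-AID call was lost without untreated replicate 1 (adjusted p = 0.0748), auxin replicate 1 (0.0801) or auxin replicate 2 (0.0922), and with median-of-ratios scaling (0.0624) or the line fitted alone (0.157). Krt18 rose from 1086 and 999.7 to 1636 and 1792 TPM in SUZ12-AID (log2 fold change 0.72, SE 0.0597, adjusted p = 8.43e-05) and fell from 862 and 927 to 360.4 and 384 TPM in AID-JARID2 (log2 fold change -1.26, SE 0.0597, adjusted p = 1.81e-07). In MTF2-AID it was 627 and 631 TPM untreated and 762 and 785 TPM with auxin (adjusted p = 0.107). The partners stayed close to each other: the ratio of Krt8 to Krt18 TPM lay between 0.898 and 1.16 in all 12 libraries, while Krt8 ranged from 335 to 1659 TPM and Krt18 from 360.4 to 1792 TPM.

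Krt7 and Krt19, keratins of glandular and other simple epithelia, did not follow the pair in AID-JARID2. Krt7 (chromosome 15, 101411043 to 101430313, plus strand) had 4.26 and 2.34 TPM in untreated SUZ12-AID and 31.5 and 37.3 TPM with auxin (log2 fold change 3.07, SE 0.218, adjusted p = 4.41e-05), the largest increase among the 32 genes in that line. In AID-JARID2 it rose from 0.243 and 0.136 to 1.34 and 1.64 TPM (log2 fold change 1.06, adjusted p = 0.00355), a change between low levels whose call was lost with a pseudocount of 5 (adjusted p = 0.0720). In MTF2-AID it was 2.86 and 3.02 TPM untreated and 9.24 and 6.87 TPM with auxin (adjusted p = 0.0885), and it passed without SUZ12-AID untreated replicate 1 (0.0302) or 2 (0.0284). Krt19 (chromosome 11, 100140810 to 100148665, minus strand) rose from 97.8 and 87.9 to 169 and 207 TPM in SUZ12-AID (log2 fold change 1.00, SE 0.105, adjusted p = 0.000255). It also rose from 151 and 161 to 207 and 244 TPM in AID-JARID2 (log2 fold change 0.52, SE 0.105, adjusted p = 0.00320). In MTF2-AID Krt19 was 70.1 and 66.5 TPM untreated and 112 and 111 TPM with auxin, both auxin libraries above both untreated ones at an adjusted p of 0.0581. It passed there when any 1 SUZ12-AID library was left out, with adjusted p values from 0.0285 (auxin replicate 1 or 2) to 0.0396 and 0.0406 (untreated replicate 2 and 1).

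**Figure D2:**
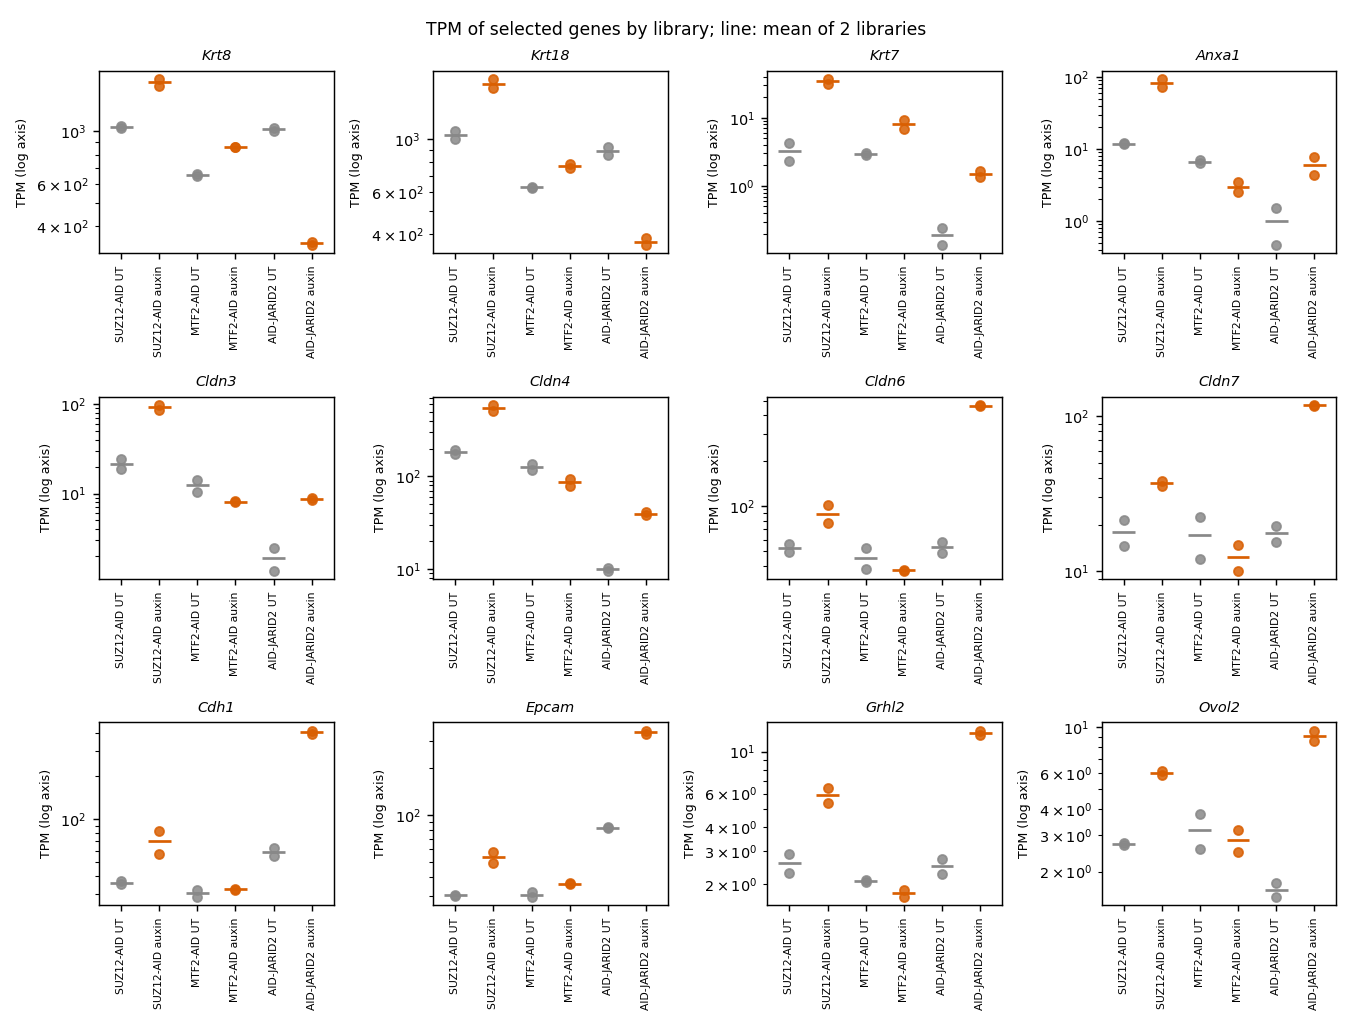
TPM (log axis, a range of its own in each panel) of 12 of the genes in each library, with 2 points per group, grey for untreated (UT) and orange for auxin, and a line at the group mean. Krt8 and Krt18 are lowest in AID-JARID2 with auxin, Krt7, Anxa1, Cldn3 and Cldn4 are highest in SUZ12-AID with auxin, and Cldn6, Cldn7, Cdh1, Epcam, Grhl2 and Ovol2 are highest in AID-JARID2 with auxin.

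Claudins are the membrane proteins that form tight junction strands, and the 4 studied here split by line. Cldn3 (chromosome 5, 134986214 to 134987472, plus strand) and Cldn4 (chromosome 5, 134945119 to 134946934, minus strand), neighbours 39.3 kb apart, had their highest levels in SUZ12-AID with auxin. Cldn4 rose there from 193 and 173 to 505 and 594 TPM (log2 fold change 1.58, SE 0.112, adjusted p = 4.41e-05). In AID-JARID2 Cldn4 rose from a far lower level, 9.56 and 10.2 to 38.2 and 41.3 TPM (log2 fold change 1.90, SE 0.112, adjusted p = 8.18e-07), and its auxin libraries stayed below the untreated ones of both other lines. In MTF2-AID it was 137 and 117 TPM untreated and 93.1 and 79.4 TPM with auxin, both lower with auxin (log2 fold change -0.55, adjusted p = 0.109, and 0.0331 with a variance weight per line). Cldn3 rose from 24.1 and 19.0 to 85.5 and 98.4 TPM in SUZ12-AID (log2 fold change 2.05, SE 0.196, adjusted p = 0.000169) and from 2.44 and 1.37 to 8.99 and 8.46 TPM in AID-JARID2 (log2 fold change 1.77, SE 0.196, adjusted p = 6.93e-05). In MTF2-AID it was 14.4 and 10.4 TPM untreated and 7.97 and 8.29 TPM with auxin (adjusted p = 0.400).

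Cldn6 (chromosome 17, 23679249 to 23682446, plus strand), a claudin of embryonic epithelia, and Cldn7 (chromosome 11, 69964779 to 69967885, plus strand) were highest in AID-JARID2 with auxin. Cldn6 started at like levels without auxin, 55.8 and 49.5 TPM in SUZ12-AID, 52.6 and 38.2 TPM in MTF2-AID and 57.8 and 48.6 TPM in AID-JARID2. With auxin it rose to 458 and 469 TPM in AID-JARID2 (log2 fold change 3.11, SE 0.157, adjusted p = 2.83e-07), the largest log2 fold change of the 32 genes in that line. That rank holds on the log2(TPM + 1) scale, which understates low genes such as Marveld3 (mean 1.65 to 17.8 TPM there). In SUZ12-AID it rose to 77.1 and 101 TPM (log2 fold change 0.74, SE 0.157, adjusted p = 0.00932), a call lost without auxin replicate 2 (adjusted p = 0.0880) and with a variance weight per line (0.0744). In MTF2-AID with auxin it was 37.2 and 37.8 TPM (adjusted p = 0.692). Cldn7 rose from 19.6 and 15.6 to 119 and 118 TPM in AID-JARID2 (log2 fold change 2.69, SE 0.272, adjusted p = 3.68e-05). In SUZ12-AID Cldn7 went from 21.6 and 14.5 to 35.7 and 38.6 TPM (log2 fold change 1.03, SE 0.272, adjusted p = 0.0251). That call was lost without untreated replicate 2 (adjusted p = 0.113), auxin replicate 1 (0.0711) or auxin replicate 2 (0.137), and with a variance weight per line (0.173). Its MTF2-AID libraries overlapped, with 22.5 and 12.04 TPM untreated and 10.1 and 14.7 TPM with auxin.

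The other 5 tight junction genes rose in AID-JARID2, and 4 of them in SUZ12-AID. Ocln encodes occludin, a four-pass protein of the strands, and rose from 2.67 and 2.77 to 8.33 and 13.5 TPM in SUZ12-AID (log2 fold change 1.65, SE 0.202, adjusted p = 0.000550) and from 1.34 and 1.18 to 7.27 and 6.95 TPM in AID-JARID2 (log2 fold change 1.84, SE 0.202, adjusted p = 6.50e-05). Marveld3, a relative of occludin, rose from 1.68 and 1.62 to 16.9 and 18.6 TPM in AID-JARID2 (log2 fold change 2.82, SE 0.146, adjusted p = 3.46e-07) and from 2.57 and 2.27 to 4.54 and 5.90 TPM in SUZ12-AID (log2 fold change 0.86, adjusted p = 0.00312). Cingulin (Cgn) and ZO-3 (Tjp3) are plaque proteins on the inner side of the junction. Cgn rose from 4.83 and 6.75 to 11.5 and 13.5 TPM in SUZ12-AID and from 8.87 and 7.51 to 16.0 and 19.0 TPM in AID-JARID2, by 1.00 and 1.01 on the log2 scale (adjusted p = 0.00210 and 0.000722). Tjp3 rose by 1.63 in AID-JARID2, from 3.51 and 2.96 to 12.7 and 11.5 TPM (adjusted p = 1.42e-05). In SUZ12-AID its log2 fold change was 0.72 (adjusted p = 0.00710, and 0.0669 without auxin replicate 2). Lsr, a protein of the corners where 3 cells meet, was high everywhere and moved least. It was 229 and 210.2 TPM untreated and 258 and 241 TPM with auxin in AID-JARID2 (log2 fold change 0.18, adjusted p = 0.0312), a call lost without untreated replicate 2 (0.225) or auxin replicate 1 (0.206) and with median-of-ratios scaling (0.110). In MTF2-AID none of these 5 passed, with log2 fold changes from -0.52 (Ocln) to 0.22 (Marveld3).

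Cdh1 (chromosome 8, 106603351 to 106670246, plus strand) encodes E-cadherin, the adhesion protein of epithelial adherens junctions. It stood at 62.2 and 54.8 TPM in untreated AID-JARID2 and at 393 and 417 TPM with auxin (log2 fold change 2.77, SE 0.142, adjusted p = 3.16e-07). In SUZ12-AID it rose from 34.8 and 36.7 to 56.9 and 82.7 TPM (log2 fold change 0.92, SE 0.142, adjusted p = 0.00179), and in MTF2-AID it was 31.5 and 28.5 TPM untreated and 32.4 and 32.0 TPM with auxin (adjusted p = 0.908). Epcam (chromosome 17, 87635979 to 87651129, plus strand), a surface protein of epithelia and of embryonic stem cells, rose from 83.4 and 82.1 to 333 and 350.3 TPM in AID-JARID2 (log2 fold change 2.03, SE 0.0785, adjusted p = 4.63e-08). In SUZ12-AID Epcam rose from 30.1 and 30.4 to 49.0 and 58.0 TPM (log2 fold change 0.80, SE 0.0785, adjusted p = 0.000198), which left it below untreated AID-JARID2. It was 29.7 and 31.6 TPM untreated and 35.7 and 36.4 TPM with auxin in MTF2-AID (adjusted p = 0.369).

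Desmosomal genes did not move as one. Desmoplakin (Dsp), which ties keratin filaments to the desmosome, fell in AID-JARID2 from 85.2 and 94.6 to 39.8 and 41.2 TPM (log2 fold change -1.13, SE 0.168, adjusted p = 0.000499), as Krt8 and Krt18 did. In SUZ12-AID it was 42.7 and 64.3 TPM untreated and 61.5 and 80.3 TPM with auxin, overlapping groups (adjusted p = 0.119), and it passed without untreated replicate 2 (0.00703). Plakoglobin (Jup), shared by desmosomes and adherens junctions, was called in no line: its log2 fold change was -0.11 in SUZ12-AID, -0.23 in MTF2-AID and -0.05 in AID-JARID2. Jup lay between 109.7 and 206 TPM in all libraries. Plakophilin 3 (Pkp3), a desmosomal plaque protein, rose from 13.0 and 11.3 to 28.0 and 41.1 TPM in SUZ12-AID (log2 fold change 1.41, SE 0.175, adjusted p = 0.000570) and from 2.44 and 2.73 to 9.23 and 9.08 TPM in AID-JARID2 (log2 fold change 1.50, SE 0.175, adjusted p = 9.68e-05). In MTF2-AID it was 12.8 and 11.99 TPM untreated and 6.68 and 8.64 TPM with auxin (adjusted p = 0.221). Lad1, a filament-associated protein, rose by 0.85 in SUZ12-AID (adjusted p = 0.000554) and 0.51 in AID-JARID2 (adjusted p = 0.00335) on the log2 scale.

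Matriptase (St14) and prostasin (Prss8) are membrane serine proteases of epithelia, and Spint1 and Spint2 encode the inhibitors that hold them in check. All 4 rose in both SUZ12-AID and AID-JARID2. St14 rose from 23.3 and 19.8 to 103 and 101 TPM in AID-JARID2 (log2 fold change 2.19, SE 0.0957, adjusted p = 1.05e-07) and from 26.9 and 27.8 to 69.7 and 80.4 TPM in SUZ12-AID (log2 fold change 1.42, SE 0.0957, adjusted p = 3.82e-05). Spint1 rose more in SUZ12-AID, from 36.1 and 35.5 to 68.9 and 84.2 TPM (log2 fold change 1.07, adjusted p = 9.54e-05), than in AID-JARID2, from 52.9 and 54.8 to 78.6 and 78.6 TPM (0.54, adjusted p = 0.00112). The difference between these effects was -0.53 (adjusted p = 0.0141). Spint2 went the other way, with 0.79 in SUZ12-AID and 1.14 in AID-JARID2 (difference 0.35, adjusted p = 0.0383), from 60.0 and 53.3 to 98.7 and 97.9 TPM and from 89.9 and 84.0 to 193 and 192 TPM. Prss8 had the smallest changes of the 4, 0.69 in SUZ12-AID (adjusted p = 0.0102) and 0.43 in AID-JARID2 (adjusted p = 0.0445). In SUZ12-AID its adjusted p was 0.0926 without auxin replicate 2. In AID-JARID2 it was 0.125 and 0.159 without untreated replicate 1 and 2, 0.158 and 0.133 without auxin replicate 1 and 2, and 0.0633 without either MTF2-AID auxin library.

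Rab25 and Ap1m2 serve polarised trafficking, as a small GTPase of recycling endosomes and a subunit of the epithelial clathrin adaptor. Rab25 rose from 3.63 and 4.48 to 36.8 and 33.1 TPM in AID-JARID2 (log2 fold change 2.83, SE 0.138, adjusted p = 2.30e-07). In SUZ12-AID it rose from 5.48 and 4.82 to 9.85 and 8.28 TPM (log2 fold change 0.71, SE 0.138, adjusted p = 0.00604), a call lost with quantile normalization (adjusted p = 0.0850) and with a variance weight per line (0.0586). Ap1m2, whose promoter window above holds 4 E-boxes, rose from 19.4 and 17.2 to 74.3 and 77.5 TPM in AID-JARID2 (log2 fold change 2.00, SE 0.145, adjusted p = 3.68e-06) and from 8.48 and 8.47 to 18.4 and 21.9 TPM in SUZ12-AID (log2 fold change 1.15, SE 0.145, adjusted p = 0.000626). Their log2 fold changes in MTF2-AID were -0.01 and -0.09.

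Among the regulators, Grhl2, a grainyhead factor that drives junction genes, rose from 2.26 and 2.71 to 12.2 and 12.9 TPM in AID-JARID2 (log2 fold change 1.96, SE 0.147, adjusted p = 4.50e-06) and from 2.30 and 2.87 to 5.33 and 6.44 TPM in SUZ12-AID (log2 fold change 0.94, SE 0.147, adjusted p = 0.00191). Esrp1, a regulator of epithelial splicing, rose from 16.6 and 15.2 to 64.0 and 67.8 TPM in AID-JARID2 (log2 fold change 1.99, SE 0.124, adjusted p = 1.22e-06) and from 9.19 and 10.7 to 16.7 and 21.0 TPM in SUZ12-AID (log2 fold change 0.85, SE 0.124, adjusted p = 0.00135). Ovol2, a zinc-finger repressor of mesenchymal genes, rose from 1.76 and 1.51 to 9.64 and 8.63 TPM in AID-JARID2 (log2 fold change 1.94, SE 0.168, adjusted p = 1.26e-05). In SUZ12-AID it rose from 2.69 and 2.75 to 5.89 and 6.18 TPM (log2 fold change 0.92, SE 0.168, adjusted p = 0.00433, adjusted p = 0.0573 with a variance weight per line). These 3 genes had close fold changes in each line, and none passed in MTF2-AID, where they went from 2.11 and 2.05 to 1.72 and 1.86, 11.7 and 10.2 to 11.7 and 11.5 and 3.79 and 2.58 to 3.18 and 2.48 TPM. Elf3, an ETS factor of epithelia, fell in AID-JARID2 from 19.5 and 20.7 to 13.1 and 11.5 TPM (log2 fold change -0.67, adjusted p = 0.00831), a call lost without untreated replicate 2 (0.0553) or auxin replicate 2 (0.0694). In SUZ12-AID Elf3 was 9.03 and 9.17 TPM untreated and 10.96 and 15.2 TPM with auxin (adjusted p = 0.0718, and 0.0216 without auxin replicate 1). Ovol1, a relative of Ovol2, and Trp63, the factor of stratified epithelia, stayed under the filter, Ovol1 at 0.604 TPM or less and Trp63 at 0.0886 TPM or less in every library.

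The last 3 genes, all products of epithelial cells, were highest in SUZ12-AID with auxin. Anxa1, a calcium-dependent membrane-binding protein, rose from 11.8 and 11.98 to 71.6 and 94.1 TPM there (log2 fold change 2.69, SE 0.284, adjusted p = 0.000265) and from 1.52 and 0.464 to 4.33 and 7.77 TPM in AID-JARID2 (log2 fold change 1.83, SE 0.284, adjusted p = 0.000651). In MTF2-AID both auxin libraries were lower, 2.51 and 3.45 against 7.04 and 6.36 TPM, at an adjusted p of 0.262. Gprc5a, an orphan receptor of epithelia, rose from 2.98 and 3.35 to 25.0 and 37.4 TPM in SUZ12-AID (log2 fold change 2.93, SE 0.201, adjusted p = 3.98e-05) and from 1.91 and 2.04 to 4.16 and 5.23 TPM in AID-JARID2 (log2 fold change 0.93, SE 0.201, adjusted p = 0.00490). Sprr2a2, a small proline-rich protein of the cornified envelope, moved with Krt8. It rose from 31.6 and 26.6 to 77.1 and 85.4 TPM in SUZ12-AID (log2 fold change 1.45, SE 0.158, adjusted p = 0.000297) and fell from 60.4 and 57.0 to 31.8 and 27.9 TPM in AID-JARID2 (log2 fold change -0.96, SE 0.158, adjusted p = 0.000969). In MTF2-AID it rose from 7.60 and 11.5 to 21.6 and 23.0 TPM (log2 fold change 1.17, SE 0.158, adjusted p = 0.0384). That call was lost when any 1 of 9 libraries was left out, with adjusted p values from 0.0544 (SUZ12-AID auxin replicate 2) to 0.255 (MTF2-AID auxin replicate 2). The 9 were both auxin libraries of SUZ12-AID, both auxin libraries and untreated replicate 1 of MTF2-AID, and all 4 of AID-JARID2. It was also lost with the line fitted alone (0.285), no filter (0.0711), a pseudocount of 0.1 (0.0505) and quantile normalization (0.0504). Sprr2a1 and Sprr2a3 are close copies in the same cluster, so reads may have been split between them.

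**Figure D3:**
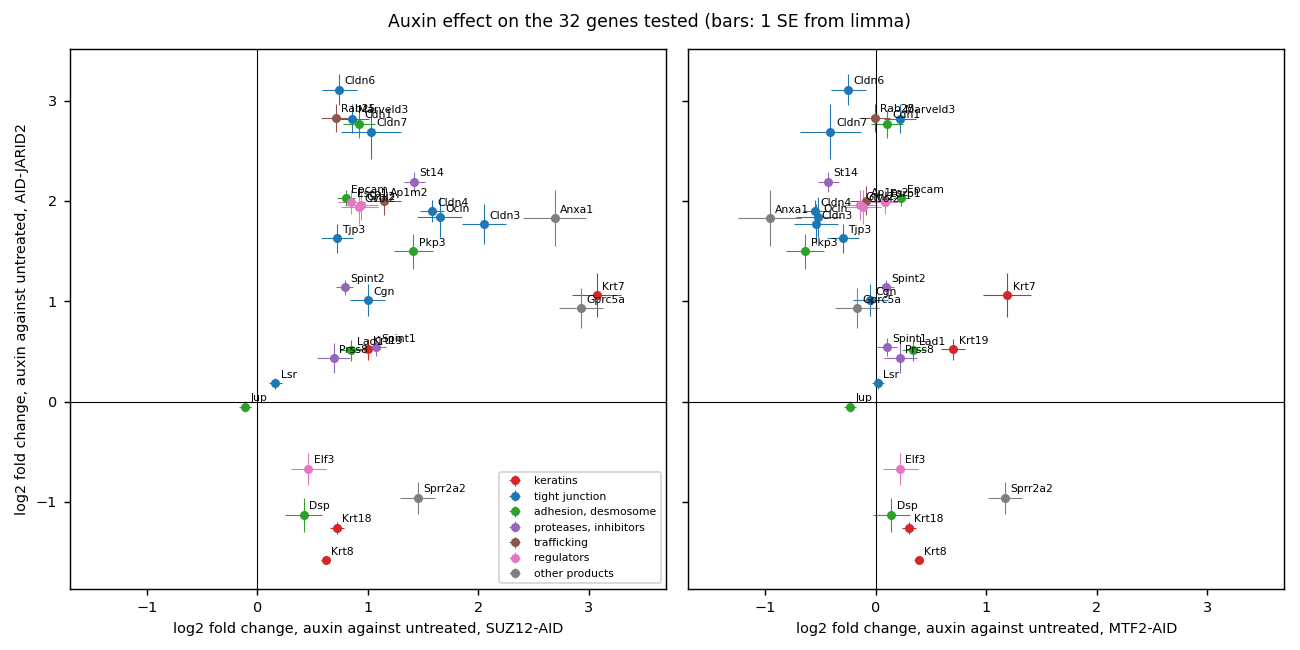
Auxin effect on each of the 32 genes tested, as log2 fold change of TPM + 1, in AID-JARID2 (vertical) against SUZ12-AID (left) and MTF2-AID (right), coloured by role, with bars of 1 SE from limma. Most genes sit in the upper right of the left panel, Krt8, Krt18, Dsp, Elf3 and Sprr2a2 lie well below the horizontal line, and the points of the right panel lie around the vertical line at 0.

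Whether the auxin effects differed between lines was tested directly. The effect was larger in AID-JARID2 than in SUZ12-AID for 13 of the 32 genes and smaller for 9 (all genes: 9.00% and 15.0%). Cldn6 had the largest positive difference, 2.37 on the log2 scale (SE 0.222, adjusted p = 5.50e-05), then Rab25 (2.13, adjusted p = 4.90e-05), Marveld3 and Cdh1. The largest negative ones were those of Sprr2a2 (-2.41, adjusted p = 5.10e-05), Krt8 (-2.20, adjusted p = 3.37e-08) and Krt7 (-2.01, adjusted p = 0.00118). For Krt7 the 1 added to TPM widened this difference, since its AID-JARID2 means were low, 0.189 TPM untreated and 1.49 TPM with auxin. In SUZ12-AID its means were 3.30 and 34.4 TPM. For Cldn4, Ocln, Pkp3 and Cgn the difference did not pass, with values from 0.01 to 0.32 and SEs from 0.158 to 0.286. The MTF2-AID effect was smaller than that of SUZ12-AID for 23 genes and larger for 0 (all genes: 9.11% and 2.00%), with Anxa1 (-3.65, adjusted p = 0.000770) and Gprc5a (-3.10, adjusted p = 0.000358) at the end of the range. That count was 15 in a fit on these 2 lines alone and also 15 without SUZ12-AID auxin replicate 2. Against MTF2-AID, the AID-JARID2 effect was larger for 21 and smaller for 5 (all genes: 12.6% and 11.7%). These comparisons share libraries and are not independent of each other.

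The untreated lines already differed. Untreated AID-JARID2 exceeded untreated SUZ12-AID in 12 of the 32 genes and was lower in 11 (all genes: 15.2% and 12.4%). Against untreated MTF2-AID it was higher in 13 and lower in 12 (15.8% and 17.6%). Cldn4 was lower by the widest margin, with a log2 difference of -4.07 from SUZ12-AID (adjusted p = 5.44e-08) and -3.55 from MTF2-AID (adjusted p = 7.07e-08). Cldn3 (-2.97 and -2.22), Anxa1 (-2.75 and -2.00) and Pkp3 (-1.87 and -1.90) were lower too. Epcam (1.42 and 1.40), Cdh1 (0.69 and 0.94), Ap1m2 (1.02 and 1.05) and Prss8 (1.02 and 1.34) were among those higher, as were Elf3 (1.06 and 1.63) and Sprr2a2 (0.99 and 2.53). Without auxin, AID-JARID2 therefore had more E-cadherin and Epcam RNA and less claudin 3 and 4 RNA than either other line. Untreated MTF2-AID was lower than untreated SUZ12-AID in 7 genes and higher in 0 (all genes: 3.15% and 5.50%), among them Sprr2a2 (-1.53, adjusted p = 0.000581), Krt18 (-0.73, adjusted p = 0.000242) and Krt8 (-0.67, adjusted p = 5.15e-05). The 7 became 4 with a variance weight per line or without SUZ12-AID untreated replicate 1 or MTF2-AID untreated replicate 1, and 3 without MTF2-AID untreated replicate 2 or with these 2 lines alone.

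Relatives of these genes, listed by family, were counted in the same way. The lists were drawn up with earlier results of these data known, so they are not an independent check. Their counts stand beside the shares of all genes given above, 15.1% higher and 4.05% lower in SUZ12-AID and 19.5% and 17.0% in AID-JARID2, and differences from those shares were not tested. Of 19 other desmosome and hemidesmosome genes 14 were tested, and 11 rose in SUZ12-AID and 9 in AID-JARID2, with 0 falling in either. Among those were the desmosomal protein Perp (60.7 ± 2.20 to 169 ± 21.8 TPM in the SUZ12-AID line, 30.0 ± 2.42 to 147 ± 9.92 TPM in AID-JARID2, mean ± SD, n = 2) and periplakin (Ppl, 2.88 ± 0.424 to 9.72 ± 2.18 and 0.764 ± 0.0387 to 5.05 ± 0.463 TPM). Of 30 further epithelial regulators and products 22 were tested, and 17 rose and 1 fell in SUZ12-AID, and 16 rose and 2 fell in AID-JARID2. The factors Tfap2c (1.46 on the log2 scale) and Klf5 (1.46) were among those that rose in SUZ12-AID. Mal2, a protein of apical transport, rose most in AID-JARID2 (0.805 ± 0.0388 to 9.17 ± 0.597 TPM), with Bspry (2.25) and Sfn (2.23). Other claudins were mostly low: 7 of 16 were tested, 3 rose and 1 fell in SUZ12-AID, and 1 rose and 1 fell in AID-JARID2. Other keratins were lower still, with 7 of 17 tested, 2 higher in SUZ12-AID, and 1 higher and 2 lower in AID-JARID2. Of 19 other adherens junction genes 14 were found and tested, and 3 rose and 1 fell in SUZ12-AID, and 6 rose and 2 fell in AID-JARID2. Nectin1, a cell adhesion protein of the immunoglobulin family, rose by 0.50 and 1.94 on the log2 scale in these lines. Of 24 other tight junction and polarity genes 23 were found and 22 tested. Of these, 9 rose and 2 fell in SUZ12-AID, and 10 rose and 4 fell in AID-JARID2. Crb3, an apical polarity protein, rose by 1.07 and 2.44, and Ildr1, a relative of Lsr at 3-cell corners, by 1.43 and 1.98. In MTF2-AID 0 of all these relatives were called.

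Genes of the mesenchymal transition fell in AID-JARID2, where Cdh1 rose most. Of 16 listed genes 15 were tested, and in AID-JARID2 13 fell and 0 rose, against 1 and 1 in SUZ12-AID. Of all genes tested 17.0% fell and 19.5% rose in AID-JARID2, and 4.05% and 15.1% in SUZ12-AID. Snai2 fell from 34.8 and 37.1 to 2.82 and 3.34 TPM in AID-JARID2 (log2 fold change -3.18, SE 0.114, adjusted p = 2.86e-08). Zeb1 fell from 8.60 and 8.76 to 1.73 and 1.84 TPM and Zeb2 from 13.2 and 14.7 to 4.11 and 4.47 TPM (log2 fold changes -1.80 and -1.50). These are repressors that bind the E-box marked in the promoter windows above. In AID-JARID2 that E-box was in 14 of 20 windows of genes that rose and in 5 of 5 of those that fell. Whether the fall of these repressors had a part in the epithelial changes was not tested. Snai1, the repressor first used at the primitive streak, fell less, from 151 and 143 to 124 and 114 TPM (log2 fold change -0.31, SE 0.0748, adjusted p = 0.00934), and stayed above its level in both other lines. N-cadherin (Cdh2) fell from 64.8 and 66.5 to 36.0 and 35.7 TPM and vimentin (Vim) from 950.0 and 939 to 455 and 443 TPM. In SUZ12-AID the log2 fold changes of Snai1, Snai2, Zeb1, Zeb2, Cdh2 and Vim ran from -0.23 to 0.04, none of them called, while Twist1 rose from 38.0 and 33.9 to 68.5 and 60.4 TPM (log2 fold change 0.82, SE 0.0955, adjusted p = 0.000408) and Twist2 fell (-0.51, adjusted p = 0.0270). By the test of the difference itself, the auxin effect on 13 of the 15 was lower in AID-JARID2 than in SUZ12-AID and that on 0 was higher (all genes: 15.0% and 9.00%), with a median difference of -1.51 on the log2 scale beside -0.07 over all genes.

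**Figure D4:**
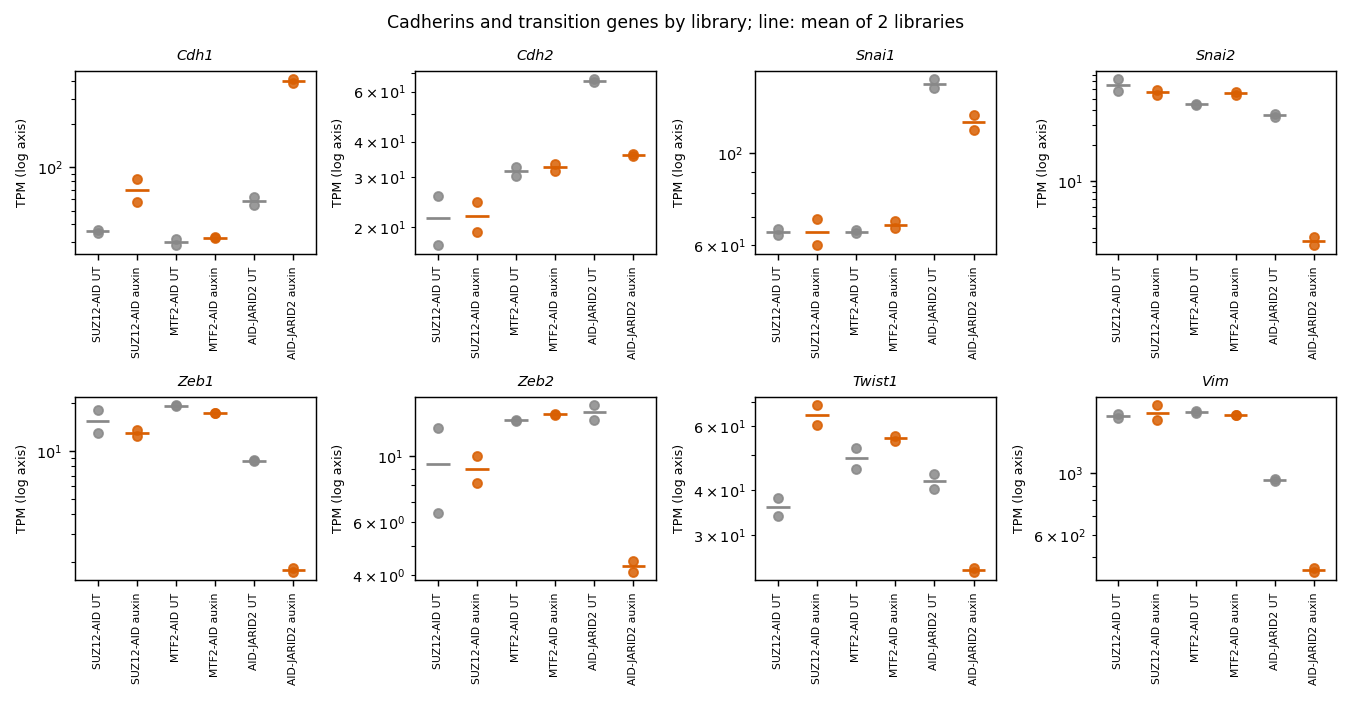
TPM (log axis, a range of its own in each panel) of the cadherins Cdh1 and Cdh2, the factors Snai1, Snai2, Zeb1, Zeb2 and Twist1, and Vim in each library, with 2 points per group, grey for untreated (UT) and orange for auxin, and a line at the group mean. In AID-JARID2 with auxin Cdh1 is at its highest and Snai2, Zeb1, Zeb2 and Vim are at their lowest, while in SUZ12-AID these 4 stay near the untreated level.

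Markers of other cell types moved with these results, and their counts are to be read against the shares of all genes called, 15.1% higher and 4.05% lower in SUZ12-AID and 19.5% and 17.0% in AID-JARID2. Pluripotent epiblast genes, which mark cells that are themselves epithelial, rose in 16 of 16 cases in AID-JARID2, where their summed level went from 968 to 978 to 4505 to 4606 TPM. In SUZ12-AID 13 of the 16 rose and the sum went from 278 to 287 to 433 to 525 TPM, and in MTF2-AID it was 331 to 350.1 TPM untreated and 351 to 351 TPM with auxin. Of 15 trophoblast markers 10 were tested. In SUZ12-AID 4 rose and 2 fell (sums 759 to 1155 and 779 to 951 TPM), and in AID-JARID2 1 rose and 7 fell (1709 to 1824 and 494 to 498 TPM). Cdx2 fell in both lines (-1.38 and -3.66 on the log2 scale). The placental hormone Prl3d1 was at 0 in all libraries, and Tpbpa and Elf5 had 1 and 2 reads in all. Surface ectoderm and epidermis markers, 11 of 14 tested, rose in 5 cases in SUZ12-AID (207 to 221 to 326 to 368 TPM in sum), and 5 rose and 3 fell in AID-JARID2 (282 to 289 to 301 to 323 TPM). Perp, Sfn and Krt17 also stand in the lists of relatives above, and so does the trophoblast marker Tfap2c. Krt5, of basal epidermis, was at 1.41 and 1.95 TPM in SUZ12-AID with auxin. Endoderm markers, 8 of 16 tested, rose in 6 cases and fell in 1 in SUZ12-AID (36.8 to 41.7 to 60.8 to 65.0 TPM), and 2 rose in AID-JARID2 (24.6 to 29.3 to 32.3 to 32.6 TPM). Of 10 markers of amnion and extraembryonic mesoderm 8 were tested, and 4 rose and 1 fell in SUZ12-AID (496 to 608 to 458 to 490.4 TPM), and 1 rose and 3 fell in AID-JARID2 (741 to 761 to 281 to 290.1 TPM). The part of any of these cell types in the epithelial changes was not tested.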

How the data were processed

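Poly(A) RNA of 12 libraries was deposited as 1 table of TPM values, and reads were aligned to mm10 with STAR 2.6.1d, per the submitters' processing notes. Libraries were strand-specific, per the labels' protocols, while the sources used here name neither counter nor annotation. Of 35856 table rows, those of 2 duplicated names were left out. Values were whole multiples of 1 read (100% within 0.01 reads), so reads per library could be recovered, 10138285 to 17171770. The 2 libraries per group limit the precision.

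The 15661 genes reaching 1 TPM in 2 or more libraries were fitted as log2(TPM + 1) in limma 3.58.1 (R 4.3.3) over 6 groups, with empirical Bayes moderation with a trend (residual degrees of freedom 6, prior 3.90), and all tests were two-sided. Alternatives were pseudocounts of 0.1 and 5, no filter or a 5 TPM filter, median-of-ratios scaling, quantile normalization, a variance weight per line, the lines compared alone, a replicate block, limma voom on recovered reads, and leaving out each library. The fit was tested on simulated data. Gene positions are GENCODE vM21 (mm10) and promoter windows RefSeq (GRCm38.p6).

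The 34 genes and the other lists were chosen with earlier results of these data known. Library values are given for keratins, claudins, Cdh1, Epcam, Grhl2, Esrp1, Ovol1, Ovol2 and genes called with an absolute log2 fold change of at least 1. Of each other list the counts are given, with up to 4 called genes per line of largest change and at least 5 TPM in the higher group. Outside this rule, genes at or near 0 (Prl3d1, Tpbpa, Elf5, Tbx5, Krt5), Gata4, and Nectin2, Magi1 and Magi3 were named after their values were seen. One gene that this rule would name is not reported here.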

Additional observations from a re-analysis of the deposited data

Results flagged for a closer look

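The auxin effect differed between lines for many of the epithelial genes, by a test of the difference itself in limma (Benjamini-Hochberg adjusted p under 0.05). Between AID-JARID2 and SUZ12-AID it differed for 22 of 32 genes, larger in AID-JARID2 for 13 and smaller for 9 (all genes: 9.00% and 15.0%). By at least 2 on the log2 scale it was larger in AID-JARID2 for Cldn6 (2.37) and Rab25 (2.13), and smaller for Sprr2a2 (-2.41), Krt8 (-2.20) and Krt7 (-2.01).

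Between MTF2-AID and SUZ12-AID it differed for 23 genes, smaller in MTF2-AID for all of them (all genes: 9.11% smaller and 2.00% larger). The count was 15 in a fit on these 2 lines alone, where 6.56% of all genes differed. The effect was smaller in MTF2-AID by at least 2 for Anxa1 (-3.65), Gprc5a (-3.10), Cldn3 (-2.59), Ocln (-2.17), Cldn4 (-2.13) and Pkp3 (-2.05).

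Between AID-JARID2 and MTF2-AID it differed for 26 genes, larger in AID-JARID2 for 21 and smaller for 5 (all genes: 12.6% and 11.7%). The claudins Cldn6 (3.36), Cldn7 (3.10), Cldn4 (2.45) and Cldn3 (2.31) rose more in AID-JARID2, as did the junction genes Cdh1 (2.67), Marveld3 (2.61), Ocln (2.37) and Pkp3 (2.14). The other differences above 2 were those of Rab25 (2.84), Anxa1 (2.79), St14 (2.63), Grhl2 (2.10), Ap1m2 (2.09) and Ovol2 (2.06), and Sprr2a2 (-2.12) was the 1 gene with a difference below -2. Each line enters 2 of these 3 comparisons, so they are not independent.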

How the results depend on the processing

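Of 6336 log2 fold changes of single genes recomputed under the alternatives, 6009 kept their side of the threshold, 254 lost a call and 73 gained one. Those that changed direction with a call in either fit numbered 0. A change of direction without a call in either fit was not counted. The 28 calls in SUZ12-AID became 8 with the line compared alone, while the 31 in AID-JARID2 became 30 with that line alone. The 2 calls in MTF2-AID became 8 with a variance weight per line (5 higher and 3 lower, all genes: 0.351% and 0.696%). They became 1 with a pseudocount of 0.1, no filter, median-of-ratios scaling or quantile normalization, and 0 with the line alone or a replicate block. The 23 differences between MTF2-AID and SUZ12-AID became 15 with the lines alone. The 7 between these lines untreated became 4 with a variance weight per line and 3 with the lines alone. Why the counts moved in these alternatives was not tested. Leaving out 1 library gave 24 to 28 calls in SUZ12-AID, 0 to 4 in MTF2-AID, 28 to 31 in AID-JARID2, 15 to 23 for MTF2-AID minus SUZ12-AID and 3 to 9 between these lines untreated. Where a group was left with 1 library, it was assumed to vary like the others.

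Same-numbered libraries shared little of their deviations, which correlated at 0.10 in SUZ12-AID, -0.04 in MTF2-AID and 0.01 in AID-JARID2. This does not show whether the replicates were paired cultures. With the replicate block the calls numbered 29, 0 and 31 in these lines, 22, 22 and 26 for AID-JARID2 minus SUZ12-AID, MTF2-AID minus SUZ12-AID and AID-JARID2 minus MTF2-AID, and 8, 25 and 27 for untreated MTF2-AID against SUZ12-AID, AID-JARID2 against SUZ12-AID and AID-JARID2 against MTF2-AID.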

Other observations

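Cldn5 and Cdh5, picked from the lists of other claudins and adherens junction genes after their values were seen, rose in SUZ12-AID. Cldn5, the claudin of endothelium, rose from 2.48 and 1.53 to 20.8 and 14.9 TPM with auxin (log2 fold change 2.65, SE 0.204, adjusted p = 6.27e-05, limma), and Cdh5, the endothelial cadherin, from 4.95 and 8.31 to 18.8 and 23.1 TPM (log2 fold change 1.55, SE 0.224, adjusted p = 0.00126). In AID-JARID2 Cldn5 was 0.136 and 0.152 TPM untreated and 0.501 and 0.647 TPM with auxin (adjusted p = 0.109), and Cdh5 1.24 and 0.641 and 0.439 and 0.302 TPM (adjusted p = 0.122). Cldn11 fell in both lines, from 25.8 and 29.6 to 5.85 and 7.22 TPM in SUZ12-AID and from 6.99 and 5.77 to 0.284 and 0.163 TPM in AID-JARID2.

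Close relatives moved in opposite directions in AID-JARID2. Paracingulin (Cgnl1) fell from 88.7 and 91.8 to 16.5 and 17.0 TPM (log2 fold change -2.36, SE 0.119, adjusted p = 2.76e-07), where cingulin (Cgn) rose. P-cadherin (Cdh3) fell from 29.0 and 28.8 to 14.8 and 14.1 TPM and Cdh11 from 65.5 and 71.0 to 14.5 and 13.4 TPM, where E-cadherin (Cdh1) rose. Nectin2 fell (-0.47 on the log2 scale) where Nectin1 rose (1.94), and the scaffold Magi3 fell (-1.13) where Magi1 rose (1.05).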
